A study of Mus musculus with 32 samples.

Results

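Most tripartite motif (TRIM) proteins have a RING finger, B-boxes and a coiled coil, and most are ubiquitin ligases that attach ubiquitin or related modifiers to other proteins. Members of the family were chosen by symbol, as every gene whose mouse symbol begins with Trim and a digit, together with Pml, which encodes the TRIM protein that organizes nuclear bodies. The rule found 42 members among the 12451 genes of the deposited count table. A further 28 mouse genes whose symbols fit the rule in the GENCODE annotation were not among these 12451 genes. Their response could therefore not be analysed here. mRNA of YUMM3.3 cells, an established mouse melanoma line, was counted by BRB-seq, a bulk method that tags the RNA of each well with a barcode and sequences only the 3′ ends of transcripts after pooling. There were 8 groups of 4 wells: untreated cells, cells given 40 ng/ml Activin-A, cells given 20 ng/ml IFN-γ, and cells given both factors at these doses, each for 4 or for 12 hrs. The dose of Activin-A is that of the labels and methods, and some of the study's legends give another. All 32 wells held the same line, and no genetic change set the groups apart. The p-values therefore measure the spread between wells of a single line in culture.

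IFN-γ signals through JAK kinases and acts on genes with gamma-activated sites (GAS) in their promoters, and it also induces interferon regulatory factors, which bind interferon-stimulated response elements (ISRE). Several TRIM genes belong to the interferon-stimulated genes, and their products restrict viruses or tune the sensors of viral RNA and DNA. Activin-A is a ligand of the TGF-β family that signals through SMAD proteins, and TRIM33 is known as a cofactor and regulator of SMAD4. The comparisons below ask which members of the family respond to IFN-γ, to Activin-A, or to neither, and whether Activin-A alters the response to IFN-γ.

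The promoters of the 7 members that were higher with IFN-γ at 12 hrs are shown first, so that the interferon motifs can be set beside the responses. Each sequence is that of RefSeq on GRCm38.p6, runs from 250 bases before to 50 bases after the annotated start, and is written 5′ to 3′ on the strand of the gene. Capitals mark matches to the ISRE letters GAAANNGAAA on either strand. A match is a description of these letters and was not tested for binding. The positions are chr7:102565433-102565732 on the minus strand for Trim21, chr7:104315446-104315745 on the minus strand for Trim12a, chr7:104353300-104353599 on the minus strand for Trim12c and chr7:104244207-104244506 on the plus strand for Trim34a. Those of the others are chr17:36836896-36837195 on the plus strand for Trim26, chr11:88999153-88999452 on the plus strand for Trim25 and chr9:58249737-58250036 on the minus strand for Pml.
Trim21: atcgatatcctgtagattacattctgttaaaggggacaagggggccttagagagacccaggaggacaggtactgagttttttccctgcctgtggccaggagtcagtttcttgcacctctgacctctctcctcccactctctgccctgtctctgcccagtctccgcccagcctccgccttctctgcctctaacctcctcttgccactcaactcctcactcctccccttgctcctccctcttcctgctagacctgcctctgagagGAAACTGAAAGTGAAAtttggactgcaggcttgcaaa
Trim12a: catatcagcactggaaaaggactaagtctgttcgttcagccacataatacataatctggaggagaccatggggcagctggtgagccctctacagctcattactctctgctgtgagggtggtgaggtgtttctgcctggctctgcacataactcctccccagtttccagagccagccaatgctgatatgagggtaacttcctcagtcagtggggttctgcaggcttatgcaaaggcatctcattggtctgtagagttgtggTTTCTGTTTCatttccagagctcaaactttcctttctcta
Trim12c: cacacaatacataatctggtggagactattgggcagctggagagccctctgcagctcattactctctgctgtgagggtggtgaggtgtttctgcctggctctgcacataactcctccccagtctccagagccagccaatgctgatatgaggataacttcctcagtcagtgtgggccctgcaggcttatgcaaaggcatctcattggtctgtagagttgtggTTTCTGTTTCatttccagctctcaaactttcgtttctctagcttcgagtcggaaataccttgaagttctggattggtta
Trim34a: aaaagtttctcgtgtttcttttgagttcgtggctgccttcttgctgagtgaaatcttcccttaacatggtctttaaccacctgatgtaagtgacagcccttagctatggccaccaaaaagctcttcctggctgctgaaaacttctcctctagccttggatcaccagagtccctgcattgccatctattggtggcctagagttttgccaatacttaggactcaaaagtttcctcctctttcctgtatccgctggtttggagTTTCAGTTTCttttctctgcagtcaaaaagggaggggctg
Trim26: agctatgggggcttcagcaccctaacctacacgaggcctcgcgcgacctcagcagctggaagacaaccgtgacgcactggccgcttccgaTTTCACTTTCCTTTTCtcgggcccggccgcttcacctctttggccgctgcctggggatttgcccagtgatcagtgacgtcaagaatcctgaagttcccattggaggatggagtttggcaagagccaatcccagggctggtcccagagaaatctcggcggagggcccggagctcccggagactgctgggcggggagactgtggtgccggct
Trim25: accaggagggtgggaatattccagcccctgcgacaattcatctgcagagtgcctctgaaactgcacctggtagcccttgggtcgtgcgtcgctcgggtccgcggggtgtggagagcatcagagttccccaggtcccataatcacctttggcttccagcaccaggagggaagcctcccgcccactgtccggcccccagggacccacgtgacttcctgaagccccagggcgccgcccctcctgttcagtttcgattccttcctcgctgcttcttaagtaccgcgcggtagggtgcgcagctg
Pml: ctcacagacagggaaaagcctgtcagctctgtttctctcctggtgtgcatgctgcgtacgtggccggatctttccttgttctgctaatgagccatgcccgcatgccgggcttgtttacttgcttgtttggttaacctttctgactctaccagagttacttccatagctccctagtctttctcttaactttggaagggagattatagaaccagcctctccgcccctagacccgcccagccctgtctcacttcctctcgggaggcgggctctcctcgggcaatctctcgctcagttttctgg

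Counting the annotated start as 0, the first base of the ISRE match lay at 10 in Trim12a, at -29 in Trim12c and at 10 in Trim34a. Trim21 had overlapping matches at 13 and 19, and Trim26 had overlapping matches farther upstream, at -160 and -154. Neither Trim25 nor Pml held these letters in this window. After global alignment, 82.7% of the 300 bases were identical between the promoters of Trim12a and Trim12c, 88.3% between Trim12c and Trim5, and 80.3% between Trim12a and Trim5. All other pairs of genes compared, among these 8 and Trim30a, lay between 55.7% and 62.7%.

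Of the 42 members, 34 had a promoter in the RefSeq table, and 9 of these, 26.5%, held an ISRE match on either strand, beside 3.99% of all 27025 genes with promoters of this length. The 9 were Trim2, Trim5, Trim12a, Trim12c, Trim21, Trim26, Trim30a, Trim30d and Trim34a. Among members that rose with IFN-γ at 12 hrs, 5 of 7 held a match, and so did 4 of the 27 other members with a promoter, Trim2, Trim5, Trim30a and Trim30d. Of these 4, Trim2 was tested at 12 hrs and did not pass, and the others were left out by a filter on low counts. The GAS letters TTCNNNGAA, which read the same on both strands, were found in 2 of 34 members, Trim45 and Trim46, beside 9.55% of all genes, and in 0 of the 7 members that rose. In RefSeq's order of genes on chromosome 7, Trim34a, Trim5 and Trim12a are consecutive, Trim12c follows after Trim34b, and Trim30a and Trim30d lie next to each other in the same run of Trim genes. Of the 42 members, 11 are on chromosome 7.

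**Figure D1:**
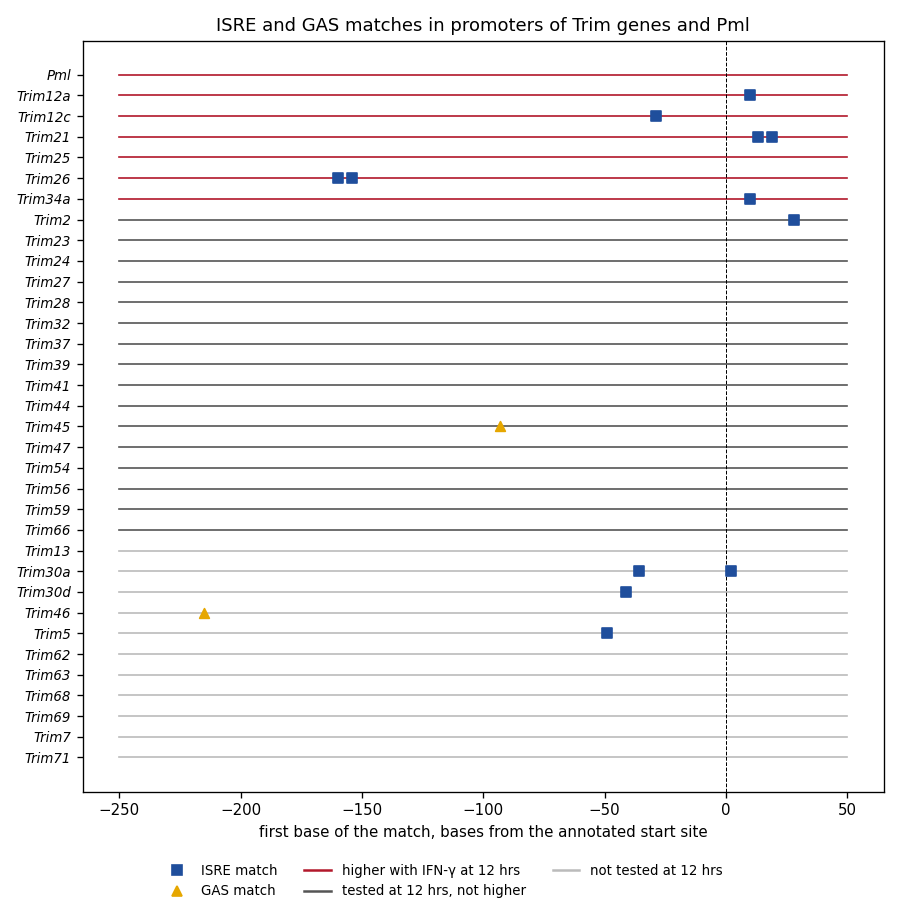
Position of ISRE (squares) and GAS (triangles) letter matches in the promoters of 34 members, with the horizontal axis in bases from the annotated start and line color giving the result with IFN-γ at 12 hrs. Squares lie on 5 of the 7 red lines, the exceptions being Pml and Trim25, and a gene with several annotated starts has its matches drawn on 1 line.

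Totals ranged from 654539 to 1455074 counts per well, with a median of 988019.5, and 3 counts, taken as the floor of detection, were worth 2.06 to 4.58 CPM (counts scaled to a common library size), a floor that covers counting error only. Replicate wells differed by more than counting noise, with a chi-squared per gene of at least 1.17 in each of 48 pairs. The first Activin-A well at 4 hrs stood apart from its replicates, with 2.60 to 3.07 in its pairs against at most 1.59 elsewhere, and mitochondrial genes held 2.14% of its counts against 1.08% to 1.54% in the other wells. Without it, 0 of 30 members tested passed with Activin-A at 4 hrs, as with it. This is near the share over all genes, of which 136 of 9231 were called without that well. All 7 melanocyte markers looked up were counted, with a sum of 319 to 448 CPM in a well, from Mitf with a median of 7.04 CPM to Pmel with 122 CPM. The 2 leukocyte markers in the table summed to 0 to 15.2 CPM, and 3 fibroblast markers to 37.9 to 83.2 CPM, most of it Col1a1 with a median of 38.3 CPM. A filter on low counts left 29 members for testing at 4 hrs and 30 at 12 hrs, 31 at either time. The 11 members that this filter left out at both times were Trim5, Trim7, Trim13, Trim30d, Trim36, Trim46, Trim62, Trim63, Trim68, Trim69 and Trim71, with at most 12 counts in any well. In an alternative without the filter all 42 members were tested, and none of these 11 was called in any comparison. At 12 hrs 8 to 856 of 12448 genes were called there, depending on the comparison. Differences are log2 fold changes fitted in edgeR, whose quasi-likelihood test gave the p-values. These were adjusted over all genes tested by Benjamini and Hochberg's method, with a threshold of 0.05.

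IFN-γ raised a small group of members that are known as interferon-stimulated or antiviral, and most of the family did not pass the test. At 4 hrs, 5 of the 29 tested members were higher and 0 lower, when 4.29% of the 9137 genes tested were higher and 0.766% lower. The 5 were Trim21, Trim12c, Trim12a, Trim25 and Pml. At 12 hrs these 5 were again higher, joined by Trim26 and by Trim34a, which was not tested at 4 hrs. Thus 7 of 30 tested members were higher and 2, Trim54 and Trim37, lower, when 6.43% of 8971 genes were higher and 2.82% lower. Trim21, Trim12a, Trim12c and Trim34a had at most 9 counts in any well without IFN-γ at 12 hrs and were tested because of the wells with IFN-γ, whereas a member as low as these that did not rise was left untested. At 4 hrs Trim21, Trim12a, Trim12c and Trim30a had at most 11 counts in any well without IFN-γ and were likewise tested because of the wells with it. With a filter on the mean of all wells, at least 10 counts, 3 of 26 tested members were higher at 4 hrs, Trim21, Trim25 and Pml, and 1 was lower, Trim28, when 432 of 8648 genes were called in either direction. At 12 hrs 4 of 26 were higher with that filter, Trim21, Trim25, Trim26 and Pml, and 2 were lower, Trim54 and Trim37, when 798 of 8618 genes were called in either direction. Trim21 passed this filter too through the wells with IFN-γ, with 25 and 18 summed counts in untreated and Activin-A wells at 12 hrs against 188 and 153 with IFN-γ alone and with both factors. The median log2 fold change of the tested members was 0.05 at 4 hrs and 0.10 at 12 hrs, beside -0.01 over all genes at both times. Since each well was measured in bulk, a rise in all cells and a rise in some of them cannot be told apart. The summed fibroblast markers were lower with IFN-γ at 12 hrs, at 46.1 to 52.0 CPM against 59.0 to 67.4 CPM in untreated wells, while at 4 hrs these groups overlapped, and their part in the result was not tested. The remaining 22 members tested at either time passed the test in no comparison with IFN-γ.

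**Figure D2:**
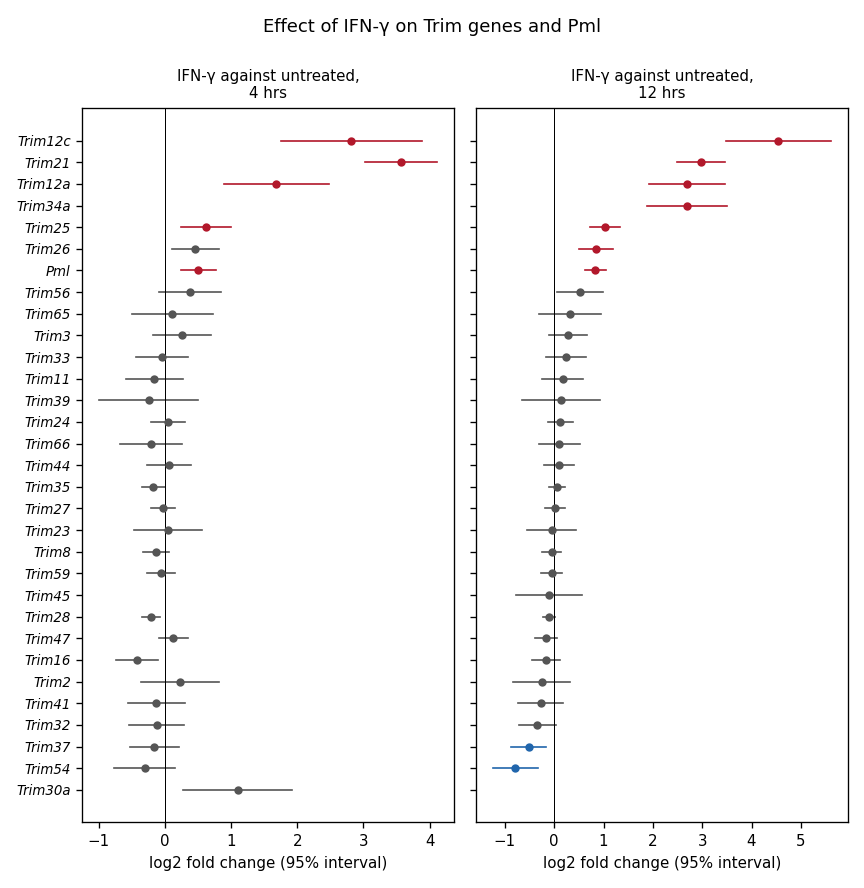
Log2 fold change of each tested member with IFN-γ against untreated cells at 4 hrs (left) and 12 hrs (right), with bars for the 95% interval. Red points were higher and blue points lower at an adjusted p under 0.05. Trim12c, Trim21, Trim12a and Trim34a stand at 2.69 or more at 12 hrs, and most other members lie close to 0.

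Trim21 encodes a cytosolic antibody receptor and ubiquitin ligase that targets antibody-bound virus for degradation. At 4 hrs it had 5.24, 3.82, 3.27 and 2.98 CPM in untreated wells and 46.2, 49.4, 48.2 and 45.1 CPM in IFN-γ wells. At 12 hrs the values were 4.61, 8.01, 5.47 and 5.81 CPM without and 44.6, 49.8, 47.2 and 48.7 CPM with IFN-γ. Every IFN-γ well was far above every untreated well at both times, and the IFN-γ wells of 4 and of 12 hrs covered nearly the same range. Trim21 rose 11.9-fold at 4 hrs (log2 fold change 3.57, SE 0.27, adjusted p = 1.44e-16) and 7.86-fold at 12 hrs (2.97, SE 0.25, adjusted p = 6.08e-19). Of the words of 31 bases in the last 500 bases of its transcripts, 12.5% also occur in the predicted gene Gm44075, so that reads from these could be assigned to either.

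Trim12a and Trim12c are mouse relatives of TRIM5, whose product restricts retroviruses by binding their capsids. Trim12a had 3.49, 5.73, 4.36 and 2.98 CPM in untreated wells at 4 hrs, and 12.2, 17.3, 7.30 and 14.5 CPM in IFN-γ wells. At 12 hrs it had 3.07, 2.67, 3.28 and 2.32 CPM in untreated wells, and 25.3, 20.8, 16.1 and 15.7 CPM in IFN-γ wells. The groups did not overlap at either time. The log2 fold change of Trim12a was 1.69 at 4 hrs (SE 0.39, adjusted p = 0.00225) and 2.69 at 12 hrs (SE 0.39, adjusted p = 2.17e-08), a 6.45-fold rise.

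Trim12c was near the floor without IFN-γ, with 3, 0, 0 and 5 counts in untreated wells at 4 hrs and 0, 1, 0 and 2 counts at 12 hrs. With IFN-γ it had 13, 13, 9 and 20 counts at 4 hrs and 15, 25, 14 and 23 counts at 12 hrs. All IFN-γ wells lay above all untreated wells at both times. Corrected for library size, its summed counts were 7.38 times as high with IFN-γ at 4 hrs (55 against 8 counts, 95% exact interval 3.49 to 17.9). At 12 hrs they were 27.4 times as high (77 against 3 counts, interval 9.03 to 136), where these intervals, and those of other summed counts below, cover counting error only and not the larger spread between wells. Adjusted p-values were 7.85e-05 and 1.34e-11. The size of the fitted rise depended on the fourth untreated well at each time. The log2 fold change was 2.82 with it and 3.75 without it at 4 hrs, and 4.55 with it and 5.53 without it at 12 hrs, and Trim12c passed the test whichever of the compared wells was left out. In the ends of its transcripts 32.9% of words of 31 bases also occur in other genes, mainly Trim5, whereas 0% do for Trim12a. Trim5 itself had 3 counts in all with IFN-γ and 1 without at 12 hrs.

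Trim34a, a gene of the same run on chromosome 7 and a relative of human TRIM34, was too low in most groups to pass the filter on low counts at 4 hrs. There it had 3.49, 1.91, 2.18 and 1.98 CPM in untreated wells and 8.51, 6.93, 10.2 and 5.96 CPM with IFN-γ. Its summed counts at 4 hrs were 29 with IFN-γ and 10 without, a ratio of 3.11 (interval 1.47 to 7.16). At 12 hrs the untreated wells had 2.30, 1.78, 3.28 and 3.48 CPM and the IFN-γ wells 20.5, 18.7, 18.2 and 14.0 CPM, so that the groups were far apart. Trim34a rose 6.44-fold at 12 hrs (log2 fold change 2.69, SE 0.41, adjusted p = 9.97e-08). It shares 28.6% of the words of its transcript ends with Trim34b, so that the counts of these genes could be split or merged.

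Trim30a encodes a TRIM protein of mouse known to dampen NF-κB signaling. At 4 hrs its IFN-γ wells, with 13.4, 9.52, 13.1 and 9.36 CPM, were all above its untreated wells, with 2.62, 5.73, 4.36 and 7.94 CPM. The log2 fold change of 1.10 did not pass the test (SE 0.41, adjusted p = 0.142). At 12 hrs the filter on low counts left Trim30a out, and its wells overlapped, with 6.14, 3.56, 2.19 and 15.1 CPM without and 10.8, 17.6, 12.9 and 4.13 CPM with IFN-γ. Its neighbour Trim30d had 7 counts in all with IFN-γ and 5 without at 4 hrs.

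Pml, Trim25 and Trim26 were already expressed without IFN-γ and changed by smaller factors. Pml had 78.3, 81.9, 74.3 and 94.1 CPM in untreated wells at 12 hrs and 167, 155, 131 and 135 CPM with IFN-γ, without overlap. It rose 1.78-fold (log2 fold change 0.83, SE 0.11, adjusted p = 8.56e-10). At 4 hrs its untreated wells held 70.7, 79.3, 69.8 and 72.4 CPM and its IFN-γ wells 98.5, 128, 77.4 and 99.6 CPM, where the lowest IFN-γ well fell below the highest untreated well. The change at 4 hrs was 1.42-fold (log2 fold change 0.51, SE 0.13, adjusted p = 0.00942), and without the second IFN-γ well it no longer passed the test (0.36, adjusted p = 0.204).

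Trim25 encodes the ubiquitin ligase that acts on the RNA sensor RIG-I and can also attach ISG15. At 12 hrs it had 32.2, 37.4, 52.5 and 34.8 CPM in untreated wells and 65.0, 88.2, 79.4 and 81.7 CPM with IFN-γ, and each IFN-γ well was above each untreated well. It rose 2.04-fold (log2 fold change 1.03, SE 0.15, adjusted p = 1.93e-08). At 4 hrs, with 20.9, 33.4, 52.3 and 33.7 CPM without and 46.2, 71.0, 33.6 and 51.9 CPM with IFN-γ, the groups overlapped. The change at 4 hrs was 0.62 on the log2 scale (SE 0.19, adjusted p = 0.0318), and it did not pass with DESeq2 (adjusted p = 0.149) or when any of 5 of the 8 wells compared was left out.

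Trim26, a ubiquitin ligase gene of the major histocompatibility region, had 29.9, 21.4, 27.3 and 38.3 CPM in untreated wells at 12 hrs and 56.6, 54.0, 44.0 and 53.7 CPM with IFN-γ. These groups did not overlap, and Trim26 rose 1.80-fold (log2 fold change 0.85, SE 0.17, adjusted p = 9.22e-05). At 4 hrs all IFN-γ wells, at 41.3, 35.5, 42.3 and 46.0 CPM, also lay above the untreated wells, at 28.8, 29.6, 28.3 and 33.7 CPM, but the log2 fold change of 0.46 (SE 0.18) had an adjusted p of 0.157. Trim56, whose product is a ubiquitin ligase linked to antiviral sensing, did not pass the test. It had 15.4, 19.6, 16.4 and 18.6 CPM without and 16.9, 34.3, 23.6 and 24.8 CPM with IFN-γ at 12 hrs (log2 fold change 0.53, 95% interval 0.06 to 0.99, adjusted p = 0.182). Its wells with both factors, at 21.3 to 41.7 CPM at 12 hrs, were above all untreated wells. At 4 hrs they had 23.8 to 30.3 CPM, against 13.1 to 21.8 CPM untreated and 17.5 to 25.5 CPM with IFN-γ alone. Both factors against untreated cells were not tested.

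**Figure D3:**
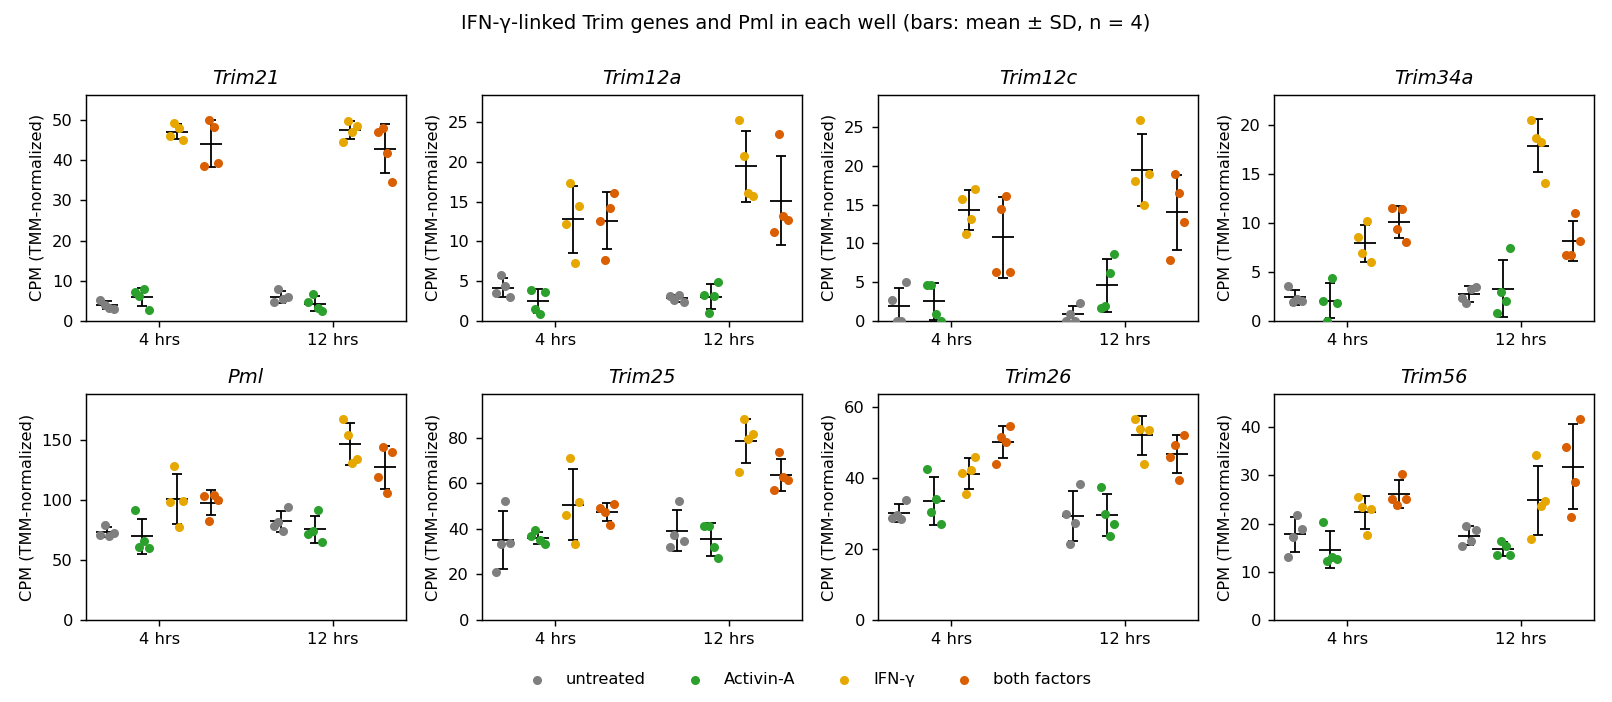
CPM of Trim21, Trim12a, Trim12c, Trim34a, Pml, Trim25, Trim26 and Trim56 in each of 32 wells, by time and treatment, with each point a well and bars for the mean ± SD of 4 wells. Wells with IFN-γ, alone or with Activin-A, are above untreated wells in the upper row at 12 hrs, and Trim34a is lower with both factors than with IFN-γ at 12 hrs.

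The rise with IFN-γ was compared between the times in a fit of all 32 wells. The log2 fold change at 12 hrs minus that at 4 hrs was 1.75 for Trim12c (SE 1.03), 1.02 for Trim12a (SE 0.61), 0.41 for Trim25 (SE 0.25), 0.34 for Pml (SE 0.18) and -0.58 for Trim21 (SE 0.44). None of these differences passed the test. In edgeR's test 0 of 31 members did, with 1 at an unadjusted p under 0.05, Trim35, and 0 in DESeq2, when 0.579% of 9332 genes were called.

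The members that fell with IFN-γ at 12 hrs were Trim54, a muscle RING finger gene, and Trim37, whose product acts at peroxisomes and centrosomes. Trim54 had 33.8, 31.1, 25.1 and 23.2 CPM in untreated wells and 18.1, 13.5, 17.2 and 18.2 CPM with IFN-γ, all lower. Its log2 fold change was -0.78 (SE 0.23, adjusted p = 0.0130). Trim37 had 43.0, 37.4, 57.9 and 51.1 CPM without and 49.4, 27.0, 24.7 and 31.4 CPM with IFN-γ, where 1 IFN-γ well lay within the untreated range. Its log2 fold change was -0.52 (SE 0.18, adjusted p = 0.0464). Neither passed with DESeq2, at adjusted p = 0.0771 for Trim54 and 0.155 for Trim37, and the calls were lost when any of 2 (Trim54) or of 6 (Trim37) of the 8 wells was left out.

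The TIF1 members Trim24, Trim28, Trim33 and Trim66 encode transcriptional cofactors, and 0 of these 4 passed the test in any comparison. Over all genes, 1 to 830 of 8971 were called in either direction at 12 hrs, depending on the comparison. The count of 0 is near such shares and no result about the group. Trim28, the corepressor of KRAB zinc finger proteins, had 523, 493, 535 and 527 CPM in untreated wells at 4 hrs and 429, 459, 426 and 467 CPM with IFN-γ. All IFN-γ wells were lower, by a log2 fold change of -0.21 (95% interval -0.34 to -0.07) with an adjusted p of 0.0630. Over 6 alternatives the adjusted p ranged from 0.0187 to 0.0806, on both sides of the threshold. At 12 hrs Trim28 had a log2 fold change of -0.11 (interval -0.23 to 0.01, adjusted p = 0.323).

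Trim24, a coregulator of nuclear receptors, had 69.1, 93.4, 66.7 and 63.9 CPM in untreated wells and 81.9, 83.0, 80.5 and 78.4 CPM with IFN-γ at 12 hrs. Its log2 fold change was 0.13 (interval -0.13 to 0.38, adjusted p = 0.675). Trim33 had 22.3, 20.5, 30.6 and 33.7 CPM without and 27.7, 38.4, 31.1 and 26.4 CPM with IFN-γ at 12 hrs, with overlap. Its log2 fold change was 0.24 (interval -0.17 to 0.65, adjusted p = 0.619). Trim66 was at 0.11 (interval -0.31 to 0.52).

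**Figure D4:**
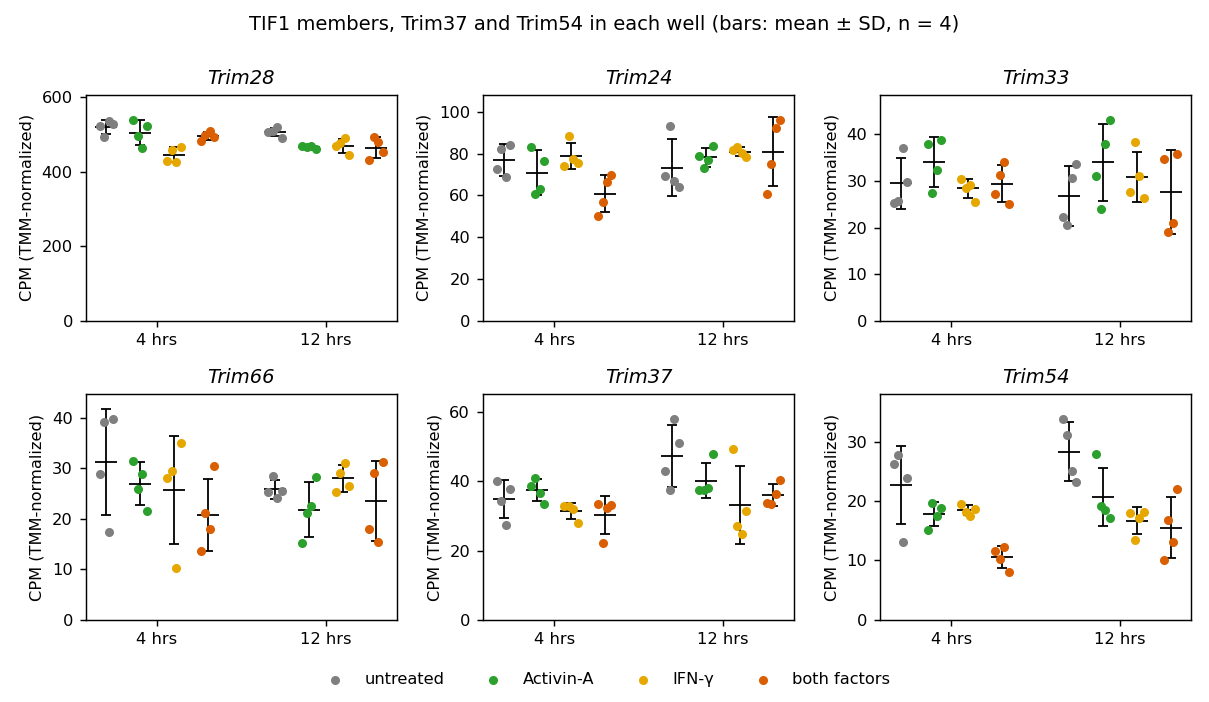
CPM of Trim28, Trim24, Trim33, Trim66, Trim37 and Trim54 in each of 32 wells, by time and treatment, with each point a well and bars for the mean ± SD of 4 wells. Trim28 is lower with IFN-γ than in untreated wells at 4 hrs, and Trim54 is lowest with both factors at 4 hrs, at 8.06 to 12.3 CPM.

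With Activin-A alone no tested member passed the threshold, which is near the shares over all genes given below and no result about the family. At 4 hrs 0 of 29 members passed edgeR's test, with 3 at an unadjusted p under 0.05 and 0 in DESeq2, when 1.64% of 9137 genes were called. At 12 hrs it was 0 of 30, with 3 at an unadjusted p under 0.05 and 0 in DESeq2, when 2.41% of 8971 genes were called. The 95% interval of the log2 fold change lay within 1 in either direction, short of a 2-fold change, for 22 of 29 members at 4 hrs and for 26 of 30 at 12 hrs. For the others, among them Trim12a, Trim12c and Trim21 at both times, the interval reached past a 2-fold change.

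The members that rose with IFN-γ overlapped their untreated levels with Activin-A. At 12 hrs Trim21 had 4.79, 6.73, 3.08 and 2.46 CPM with Activin-A (log2 fold change -0.43, interval -1.27 to 0.42). Pml had 71.8, 74.0, 91.4 and 65.2 CPM (-0.11, interval -0.36 to 0.13), and Trim25 41.5, 41.3, 31.8 and 27.1 CPM (-0.10, interval -0.44 to 0.25). These wells overlapped the untreated wells of each gene. Trim12c was the exception in size, with 2, 2, 6 and 7 counts with Activin-A against 0, 1, 0 and 2 without. Its summed counts were 5.84 times as high (17 against 3 counts, interval for counting error only 1.69 to 31.1). The wells overlapped, and the test between wells did not pass, with an adjusted p of 0.0822. Trim12c passed the test without the fourth untreated well or without the first Activin-A well.

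Neither Trim33, whose product is known as a regulator of SMAD4, nor Trim28 passed the test with Activin-A. Trim33 had 31.1, 24.0, 38.0 and 43.1 CPM with Activin-A at 12 hrs, overlapping the untreated wells (log2 fold change 0.36, interval -0.05 to 0.76, adjusted p = 0.531). Trim28 had 469.8, 467, 469 and 460.1 CPM with Activin-A at 12 hrs, all below the untreated wells, which had 505, 509, 519 and 491 CPM. The difference was -0.12 on the log2 scale (SE 0.06, adjusted p = 0.441). Trim24 was at 0.07 (interval -0.18 to 0.33). At 4 hrs the 3 members with an unadjusted p under 0.05 were Trim47 at 0.28 (adjusted p = 0.202), Trim65 at 0.59 (adjusted p = 0.396) and Trim23 at -0.58 (adjusted p = 0.403). Trim47 had 112.7, 112, 125 and 128 CPM with Activin-A and 98.6, 94.6, 100.3 and 101 CPM without, so that its groups did not overlap. At 12 hrs its means were 104.8 CPM with and 104.0 CPM without Activin-A, and the groups overlapped. Among members left out by the filter on low counts, Trim62, described here after its values were seen, had 3.99, 4.81, 5.14 and 7.38 CPM with Activin-A at 12 hrs and 1.54, 2.67, 2.19 and 0 CPM without, with no overlap. Its summed counts were 21 against 7, a ratio of 3.09 (interval for counting error only 1.27 to 8.60). At 4 hrs the order was the other way, with 12 counts against 20, a ratio of 0.557 (interval for counting error only 0.248 to 1.20). Without the filter on low counts, 0 of 42 members passed edgeR's test for Activin-A at 12 hrs, Trim62 among those tested. There 234 of 12448 genes were called.

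**Figure D5:**
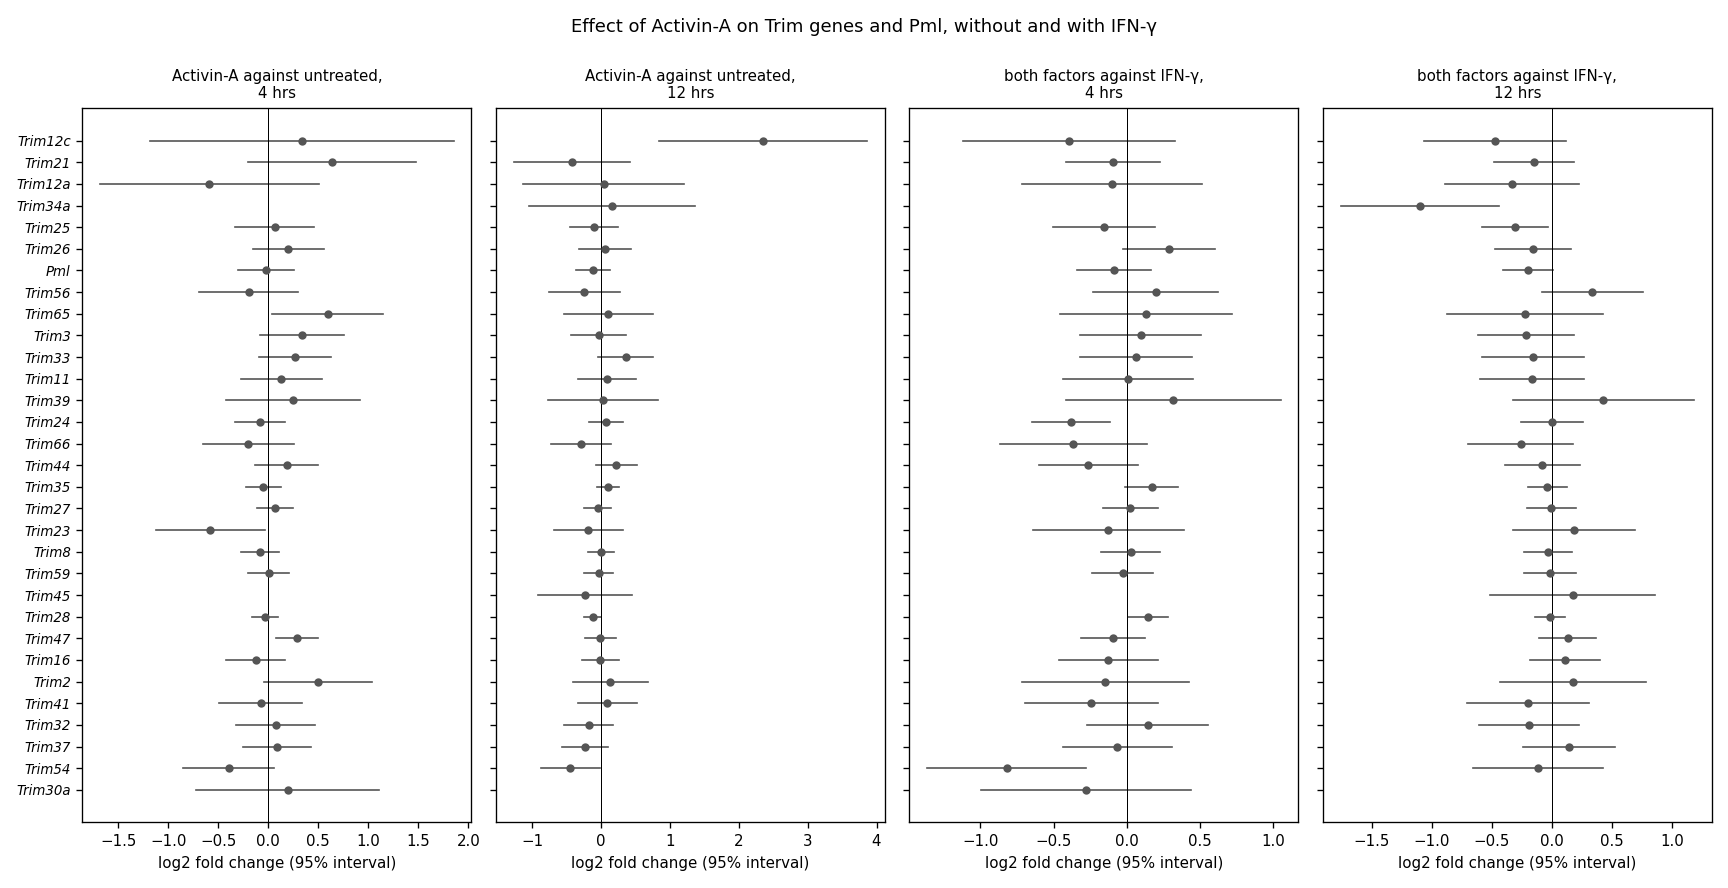
Log2 fold change of each tested member with Activin-A against untreated cells and with both factors against IFN-γ, at 4 and 12 hrs, with bars for the 95% interval. No point passed an adjusted p of 0.05. Trim12c at 2.35 with Activin-A at 12 hrs and Trim34a at -1.10 with both factors at 12 hrs stand farthest from 0 in their panels.

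With IFN-γ present, again no tested member passed the threshold for Activin-A, near the shares over all genes given below and no result about the family. At 4 hrs 0 of 29 members passed edgeR's test for both factors against IFN-γ, with 3 at an unadjusted p under 0.05 and 0 in DESeq2, when 0.810% of genes were called. At 12 hrs it was 0 of 30, with 2 at an unadjusted p under 0.05 and 0 in DESeq2, when 1.03% of genes were called. These comparisons share their IFN-γ wells with those of IFN-γ against untreated cells, so that a chance excess in an IFN-γ well raises one difference and lowers the other.

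Trim34a had the largest difference of the tested members at 12 hrs. It had 6.73, 6.72, 11.0 and 8.10 CPM with both factors, all below the 4 wells with IFN-γ alone, and above the untreated wells. Its log2 fold change was -1.10 (SE 0.33, interval -1.76 to -0.44, unadjusted p = 0.00137, adjusted p = 0.0994), and its summed counts were 29 against 69, a ratio of 0.465 (interval for counting error only 0.290 to 0.727). At 4 hrs the order of the means was the other way, with 11.5, 9.33, 11.4 and 8.06 CPM for both factors beside 7.90 ± 1.87 CPM (SD, n = 4) for IFN-γ alone, and the groups overlapped.

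None of the other members that rose with IFN-γ passed the test for an added effect of Activin-A at 12 hrs. Trim21 had 47.1, 48.1, 41.7 and 34.7 CPM with both factors (log2 fold change -0.15, interval -0.48 to 0.18), and Pml had 119, 144, 105 and 140.0 CPM (-0.20, interval -0.40 to 0.01). Trim25 had 57.2, 73.9, 62.6 and 61.3 CPM, overlapping the wells with IFN-γ alone (-0.31, interval -0.59 to -0.04, adjusted p = 0.403). Trim12a was at -0.33 (interval -0.89 to 0.23), Trim12c at -0.47 (interval -1.07 to 0.12) and Trim26 at -0.16 (interval -0.48 to 0.16). The median over all tested members was -0.10, beside -0.01 over all genes.

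At 4 hrs the 3 members with an unadjusted p under 0.05 were Trim54, Trim24 and Trim28. Trim54 had 11.5, 10.2, 12.3 and 8.06 CPM with both factors, all below the wells with IFN-γ alone, at 19.5, 18.2, 17.5 and 18.7 CPM (log2 fold change -0.82, SE 0.27, adjusted p = 0.185). Trim24 had 50.2, 56.8, 66.4 and 69.9 CPM with both factors, below 74.2, 88.3, 77.4 and 75.7 CPM with IFN-γ alone (-0.38, SE 0.13, adjusted p = 0.231). Trim28 was higher in all wells with both factors, at 481, 498, 510.1 and 493 CPM (0.15, SE 0.07, adjusted p = 0.483). At 12 hrs Trim54 was at -0.12, Trim24 at 0.00 and Trim28 at -0.01, and the wells of each overlapped.

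Whether Activin-A acts differently with and without IFN-γ was tested by the interaction at 12 hrs. In edgeR's test 0 of 30 members passed, with 1 at an unadjusted p under 0.05 and 0 in DESeq2, when 0.0111% of genes were called. The 1 member was Trim12c at -2.83 on the log2 scale (SE 0.82, adjusted p = 0.247), which had 3 counts in all in its untreated wells.

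Grouped by known function, the members higher with IFN-γ all came from the list of TRIM genes with known links to interferon or antiviral responses. Of its 16 genes 11 were in the table and 8 were tested, with 5 higher at 4 hrs and 7 at 12 hrs. Over all genes tested 4.29% and 6.43% were higher. The median log2 fold change of the list was 0.86 and 1.86, beside -0.01 over all genes. The list was chosen with earlier results of these data known, and Trim21, Trim12a, Trim12c, Trim34a and, at 4 hrs, Trim30a were tested because of the wells with IFN-γ, so that these counts are a description. Trim30a at 4 hrs and Trim34a at 12 hrs were each tested at 1 time only, and Trim56 passed at neither. In the 4 comparisons with Activin-A 0 of the 8 passed, near the shares of 0.810% to 2.41% over all genes. The NHL-domain members Trim2, Trim3 and Trim32, which bind RNA or cargo through a propeller domain, had 0 of 3 called in each comparison. This is likewise near the shares over all genes, of which 1 to 830 of 8971 were called at 12 hrs. Among muscle RING finger members 1 was tested, Trim54, described above, and among membrane-anchored members 1, Trim59, which was not called. Of the 4 genes listed as COS-box and microtubule-linked, 2 were in the table and 0 were tested. Of 6 related genes outside the rule 1 was in the table and was not called.

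Genes that work with the IFN-γ-responsive members were looked up as lists. Of 13 genes for partners of PML in nuclear bodies and for SUMO, 12 were tested at 4 hrs, without Sp140, and 12 at 12 hrs, without Sumo2. Sp100 and Sp110, which encode nuclear body proteins, were higher with IFN-γ at 4 hrs, and Daxx, Sp100, Sp110 and Sp140 at 12 hrs, beside the shares of 4.29% and 6.43% over all genes. Sp110 at 4 hrs, at 2.63 CPM in untreated wells and 15.6 CPM with IFN-γ, and Sp110 and Sp140 at 12 hrs, at 5.12 and 1.51 CPM in untreated wells, were tested because of the wells with IFN-γ. In the comparisons with Activin-A 0 of 12 were called, which is near the shares of 0.810% to 2.41% over all genes. Daxx, a histone chaperone bound by PML, had a log2 fold change of 0.98 at 12 hrs (SE 0.16, adjusted p = 3.57e-07), beside 0.83 for Pml, and Sp100 went from 17.4 ± 2.23 to 52.6 ± 3.85 CPM (SD, n = 4). The median log2 fold change of the list was 0.17 at 12 hrs, beside -0.01 over all genes.

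Of 9 genes for partners of TRIM25 and for ISG15 conjugation, 8 were tested, and 7 were higher with IFN-γ at both times, namely Isg15, Ube2l6, Uba7, Herc6, Usp18, Zc3hav1 and Ddx58. Of these, Uba7 and Herc6 were tested at 4 hrs because of the wells with IFN-γ, at 3.93 and 4.28 CPM in untreated wells against 26.8 and 22.0 CPM, and so was Herc6 at 12 hrs, at 5.18 against 25.2 CPM. The share over all genes was again 4.29% and 6.43%, and the median log2 fold change of the list was 1.61 at 4 hrs and 2.28 at 12 hrs, beside -0.01. The exception was Mavs, the adaptor of RIG-I, at -0.09 at 12 hrs (adjusted p = 0.794). Ddx58, which encodes RIG-I, went from 19.6 ± 4.96 to 92.5 ± 11.1 CPM at 12 hrs, a log2 fold change of 2.25 (SE 0.18, adjusted p = 1.02e-20), beside 1.03 for Trim25. With both factors Ddx58 was at 58.3 ± 15.1 CPM, lower than with IFN-γ alone (-0.65, SE 0.14, adjusted p = 0.00312), and so was Isg15 (-0.45, SE 0.09, adjusted p = 0.000321). The same comparison for Trim25 was the -0.31 given above, and the difference between these genes was not tested. For both factors against IFN-γ, 2 of 8 genes of the list were called at 12 hrs and 0 of 8 at 4 hrs, beside 1.03% and 0.810% over all genes. In the interaction at 12 hrs 0 of 8 were called, near the share of 0.0111%. Of 7 genes for partners of TRIM33 and TRIM28, such as Smad4, 0 were called in any comparison, a count near the shares called over all genes and no result about these genes.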

How the data were processed

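BRB-seq of YUMM3.3 cells gave 32 libraries, 4 wells for each of 8 groups. The authors deposited raw counts per gene, as whole numbers without normalization. The submitters' processing notes name STAR 2.7.10b, featureCounts, DESeq2 1.36.0 and the GRCm39 (mm39) build. How duplicate molecules, strand and reads that match several genes were treated is not given in the sources used here. Identifiers were matched to symbols in GENCODE release M21 on GRCm38 for 12437 of 12451 genes.

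Counts were analysed in R 4.3.3 with edgeR 4.0.16: filterByExpr by group, TMM normalization, and the quasi-likelihood test over the 16 wells of each time, with all 32 used for the difference between times. Adjustment was by Benjamini-Hochberg over all genes tested, at 0.05. CPM are TMM-normalized. SEs are the log2 fold change divided by the square root of F. Ratios of summed counts have exact conditional binomial intervals at 95%. Values are given per well for members called in at least 1 comparison and for Pml, Trim21, Trim25, Trim24, Trim28 and Trim33. Trim30a, Trim56, Trim47 and the partner genes singled out were picked with their values in view. The members and gene lists were chosen with earlier results of these data known. The fits were tested on simulated data.

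Alternatives were DESeq2 1.42.0, RLE normalization, no filter, a mean of at least 10 counts, the replicate number as a block, all 32 wells in a fit, an adjusted p under 0.01, and each compared well left out in turn. Leaving out the first Activin-A well at 4 hrs from comparisons that do not use it was chosen after seeing the data. Promoters and shared words of 31 bases were read in Python 3.11.15.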

Additional observations from a re-analysis of the deposited data

Results flagged for a closer look

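Of 96 groups of 4 wells, those of 12 members (the 9 called with IFN-γ at either time, and Trim24, Trim28 and Trim33), 6 held a well farther from its replicates than Dixon's 95% limit, beside the 5% that chance gives. Pml was at 91.7 CPM in the first Activin-A well at 4 hrs, with the nearest replicate at 65.6 CPM. This is the well that stood apart from its replicates over all genes, and Pml did not pass the test for Activin-A. Trim12a was at 23.5 CPM in the second well with both factors at 12 hrs, next to 13.2 CPM. Trim34a was at 3.49 CPM in the first untreated well at 4 hrs, next to 2.18 CPM, a difference of 4 and 2 counts. Trim37 was flagged in 3 groups, at 28.1 CPM in the fourth IFN-γ well at 4 hrs (nearest 32.1), at 22.1 CPM in the second well with both factors at 4 hrs (nearest 32.2) and at 48.0 CPM in the fourth Activin-A well at 12 hrs (nearest 38.0). None of these wells belongs to the groups compared for IFN-γ at 12 hrs, where Trim37 was lower, although the fourth Activin-A well at 12 hrs enters the fit from which the spread was estimated.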

How the results depend on the processing

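The number of members called stayed within 1.5 times the reported number in 135 of 138 alternatives over the 8 comparisons, and no called value changed its sign. The exceptions were leave-one-out fits. For IFN-γ at 4 hrs the number called ranged from 3 to 7, with 3 without the second IFN-γ well, which lost Pml and Trim25. For Activin-A at 12 hrs the number of members called ranged from 0 to 1, with Trim12c called without the fourth untreated well or without the first Activin-A well. In these fits 190 of 9117 and 170 of 9061 genes were called. Trim21, Trim12a, Trim12c, Trim34a, Trim25, Trim26 and Pml kept their call at 12 hrs in every alternative in which they were tested. A mean of at least 10 counts left Trim12a, Trim12c and Trim34a untested. Without the first Activin-A well at 4 hrs in the fit, 7 members were called for IFN-γ at 4 hrs, Trim28 and Trim34a in addition. The same 7 were called with all 32 wells in the fit. Over all genes the calls were 517 of 9231 without that well and 491 of 9332 with all 32 wells, beside 462 of 9137 in the main fit. The replicate numbers did not pair the wells, since same-numbered wells deviated together with a mean correlation of -0.000234, and 6 of 32 wells correlated best with their own number. With the replicate number as a block, 5 members were called for IFN-γ at 4 hrs, 9 at 12 hrs and 0 in each other comparison. Over all genes the calls with that block were 445 of 9137 and 822 of 8971 for IFN-γ. In the other comparisons they were 1 to 218 genes, so that 0 members is near those shares. Depth limits the members with few counts: the 11 that the filter left out at both times, and Trim12c, Trim12a and Trim34a without IFN-γ. Without the filter all 42 members were tested, and none of the 11 was called. At 12 hrs 8 to 856 of 12448 genes were called there, depending on the comparison.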
